A study of Homo sapiens with 5 samples.

Results

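The aryl hydrocarbon receptor and 5 genes reported to answer to it were followed through low oxygen and reoxygenation in MDA-MB-231, a widely used human cell line from a triple-negative breast cancer. The 6 genes are AHR, AHRR, TIPARP, CYP1A1, CYP1B1 and ALDH1A3, found by their symbols among the 26475 rows of the count table, and all 6 passed the filter on low counts. They were selected on measured values of these same libraries, so their levels and differences are a description and carry no test. RNA sequencing gave 5 libraries, 1 per condition. Cells of the reoxygenated library had spent 10 days at 1% O2 and then 10 days at 20% O2. The other libraries came from cells kept for 10 days at 1% O2, 10 days at 20% O2, 1 day at 1% O2 and 1 day at 20% O2. The labels name no other treatment and no ligand of the receptor. The model is a single cell line grown in culture, and the 20% O2 library of day 10 is the only one that shares the culture time of the 10 days at 1% O2.

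AHR is a ligand-activated transcription factor of the bHLH-PAS family, held in the cytoplasm by HSP90 and the co-chaperone p23 until an aromatic ligand binds. It then enters the nucleus and pairs with ARNT, the same partner that HIF-1α uses in low oxygen, and the pair binds xenobiotic response elements near genes such as CYP1A1, CYP1B1, TIPARP and AHRR. AHRR and TIPARP limit the receptor in turn, and in breast cancer cells the pathway is known for oxidising aromatic carcinogens and estrogens through the CYP1 enzymes.

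Promoter sequences were available in the RefSeq table (GRCh38.p14) for 5 of the 6 genes, with none for CYP1B1. Those of CYP1A1 and TIPARP, targets that differed at least 2-fold on day 10, and that of AHR, the receptor, are shown to set the response element letters beside the values. Each runs 5′ to 3′ on the gene's own strand from 250 bases before to 50 bases after the annotated start, at chr15:74725479-74725778 (minus strand), chr3:156676414-156676713 (plus strand) and chr7:17298402-17298701 (plus strand). Capitals mark GCGTG, the core of the xenobiotic response element, and ACGTG, a core of the hypoxia response element, on either strand.
CYP1A1: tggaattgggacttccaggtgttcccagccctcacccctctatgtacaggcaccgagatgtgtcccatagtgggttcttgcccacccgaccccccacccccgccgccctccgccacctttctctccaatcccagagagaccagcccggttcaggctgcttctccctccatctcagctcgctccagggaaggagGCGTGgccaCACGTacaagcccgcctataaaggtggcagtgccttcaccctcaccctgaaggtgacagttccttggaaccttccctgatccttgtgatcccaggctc
TIPARP: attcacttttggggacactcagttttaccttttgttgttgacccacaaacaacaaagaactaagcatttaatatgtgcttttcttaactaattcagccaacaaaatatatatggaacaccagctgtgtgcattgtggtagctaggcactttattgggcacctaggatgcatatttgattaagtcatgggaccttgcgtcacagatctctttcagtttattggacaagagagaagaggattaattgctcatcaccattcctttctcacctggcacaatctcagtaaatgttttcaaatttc
AHR: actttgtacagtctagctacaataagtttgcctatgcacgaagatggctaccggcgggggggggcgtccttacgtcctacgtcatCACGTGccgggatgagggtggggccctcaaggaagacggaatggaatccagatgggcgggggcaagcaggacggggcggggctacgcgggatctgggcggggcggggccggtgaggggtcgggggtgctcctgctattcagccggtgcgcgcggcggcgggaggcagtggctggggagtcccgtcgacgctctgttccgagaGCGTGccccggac
In the CYP1A1 window GCGTG lay at -57 to -53 from the start on the gene's strand, and ACGTG lay at -48 to -44 on the other strand. The AHR window held 1 GCGTG, after the start, and 2 overlapping ACGTG matches that read CACGTG. The TIPARP window held neither, and its GC content was 38%, against 61% in the CYP1A1 window; the TIPARP and AHRR starts in that table lie inside the annotated span of the gene rather than at its edge, and another start may be the main one. AHRR and ALDH1A3 held 2 GCGTG each and no ACGTG. None of the 5 windows held TNGCGTG, the longer form of the element, which contains the core. Bases outside the windows were not searched, so an element further from the start would be missed. Of 35116 promoter windows of the same length, 36.5% held GCGTG, 21.4% held ACGTG and 5.51% held TNGCGTG. HIF can also bind GCGTG, so that core does not separate the factors, and a match describes letters only.

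The libraries held 7719797 to 12544953 counts, so that 1 read was worth 0.0816 to 0.126 CPM (a gene's counts scaled to the library's size) and a gene with no counts could lie at up to 0.245 to 0.377 CPM. Of 5 genes that low oxygen is known to induce, CA9, NDRG1 and ANKRD37 were at least 2-fold higher at 1% O2 in both oxygen pairs, PDK1 on day 1 and VEGFA on day 10. CA9 had 29 counts in the reoxygenated library, 717 after 10 days at 1% O2 and 104 after 10 days at 20% O2, with 560 and 53 counts after 1 day at 1% and 20% O2. The line's own markers VIM, CD44, ZEB1, AXL, CAV1 and EGFR were abundant. Their summed level was 3381 to 5392 CPM and was lowest after 10 days at 1% O2. The members did not move together: in that library VIM was at its lowest, 977 CPM, and EGFR at its highest, 853 CPM. ESR1, PGR and CDH1 stayed at or below 1.06 CPM. ERBB2 (42.6 to 53.0 CPM), EPCAM (15.1 to 29.1 CPM) and GATA3 (6.23 to 9.71 CPM) were not absent. Blood markers summed to 1.2 to 6.52 CPM and were highest after 10 days at 1% O2, with CD3E and HBB at 0 in all 5 libraries; their part in the results was not tested. Endothelial markers summed to 1.11 to 2.59 CPM, fibroblast markers to 0.463 to 0.979 CPM and hepatocyte markers to 2.12 to 7.67 CPM. In bulk RNA, fewer expressing cells and less RNA per cell cannot be told apart.

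AHR, the receptor itself, differed little between the libraries. It was at 113 CPM in the reoxygenated library, 108 CPM after 10 days at 1% O2 and 87.2 CPM after 10 days at 20% O2, with 94.7 and 88.0 CPM after 1 day at 1% and 20% O2. The reoxygenated level and that of 10 days at 1% O2 lay apart by no more than their counting error, as did neighbours among the 3 lower levels. Its difference between 1% and 20% O2 on day 10 was 0.31 on the log2 scale (95% interval of the count ratio 0.19 to 0.43). These exact intervals cover counting error only and say nothing of the spread between cultures. In the transcripts of GENCODE 29, 28.8% of the 50-base words of AHR also occur in the lncRNA AC019117.2 on the same strand, so its reads could be shared out with that gene.

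AHRR, the repressor that competes with AHR for ARNT, was the least counted of the 6 genes. It had 33 counts in the reoxygenated library, 26 after 10 days at 1% O2 and 26 after 10 days at 20% O2, with 25 and 16 counts after 1 day at 1% and 20% O2. No neighbouring levels in its order lay apart beyond counting error. The interval of its day 10 difference ran from -0.61 to 1.07 on the log2 scale, so a level 2-fold higher at 1% O2 lay within counting error. The reoxygenated library was higher than that of 10 days at 20% O2 by 0.91 (0.18 to 1.77).

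TIPARP, also called PARP7, attaches single ADP-ribose units to AHR and lowers its activity. It was at 74.7 CPM in the reoxygenated library, 114 CPM after 10 days at 1% O2 and 54.9 CPM after 10 days at 20% O2, with 82.5 and 71.8 CPM after 1 day at 1% and 20% O2. The highest level was that of 10 days at 1% O2 and the lowest that of 10 days at 20% O2, and both lay apart from their neighbours by more than counting error. Neighbours among the 3 levels between them, reoxygenated cells and both libraries of day 1, did not. Its day 10 difference of 1.05 (0.91 to 1.19), or 2.07-fold, therefore joins a high level at 1% O2 with a 20% O2 level that was itself lower than on day 1, by -0.38 (-0.54 to -0.23).

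CYP1A1, the P450 enzyme that oxidises polycyclic aromatic compounds and the most used readout of AHR activity, had the widest range of the 6 genes. It was at 32.7 CPM in the reoxygenated library, 99.0 CPM after 10 days at 1% O2 and 8.49 CPM after 10 days at 20% O2, with 9.64 and 8.86 CPM after 1 day at 1% and 20% O2. Neighbours among the last 3 levels did not lie apart beyond counting error, whereas the reoxygenated library and that of 10 days at 1% O2 each stood clear of the next. CYP1A1 shared none of its 50-base words with another gene, and its neighbour CYP1A2 had 0 to 2 counts per library.

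CYP1B1, the related P450 enzyme that hydroxylates estradiol, was ordered differently. It was at 208 CPM in the reoxygenated library, 120.3 CPM after 10 days at 1% O2 and 42.4 CPM after 10 days at 20% O2, with 39.6 and 35.7 CPM after 1 day at 1% and 20% O2. Reoxygenated cells had the highest level, clear of that after 10 days at 1% O2, which was in turn clear of the 3 others. The antisense gene CYP1B1-AS1 shares 8.71% of the words of CYP1B1 on the other strand and had 3, 10 and 0 counts in the reoxygenated, 1% O2 and 20% O2 libraries of day 10, with 1 count in each library of day 1. The strand setting of the counting is not given in the sources used here, so reads of the pair cannot be told apart.

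ALDH1A3 makes retinoic acid from retinal and marks stem-like cells in breast tumours. It was at 31.5 CPM in the reoxygenated library, 35.7 CPM after 10 days at 1% O2 and 28.2 CPM after 10 days at 20% O2, with 19.0 and 24.5 CPM after 1 day at 1% and 20% O2. Only the lowest level, that of 1 day at 1% O2, lay apart from its neighbour beyond counting error. An antisense lncRNA, AC015712.2, shares 24.1% of its words.

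**Figure D1:**
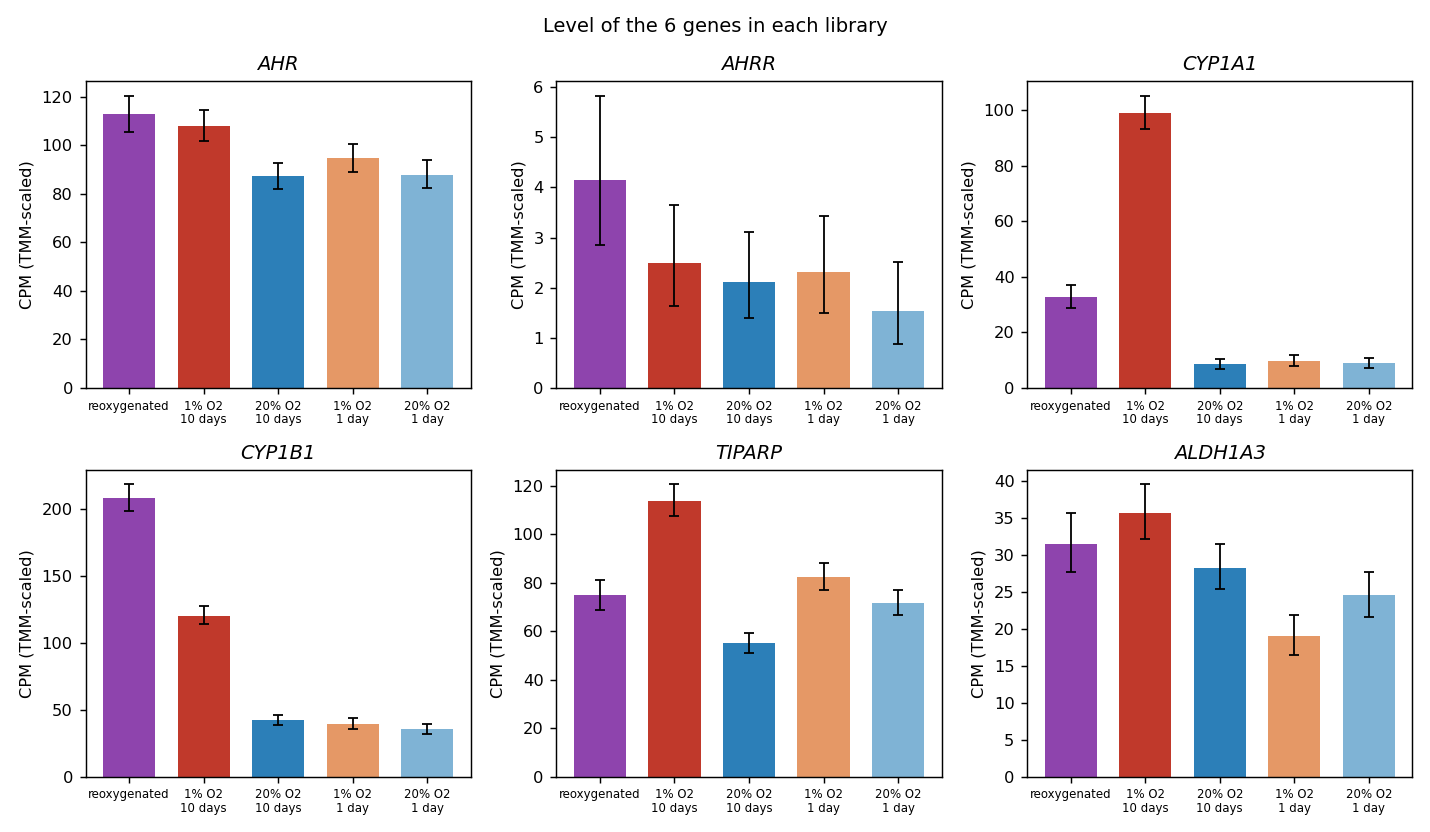
Level of each of the 6 genes in the 5 libraries, in CPM scaled with TMM factors on axes that start at 0; error bars are exact 95% Poisson intervals of the count and cover counting error only. CYP1A1 stood at 99.0 CPM after 10 days at 1% O2, whereas CYP1B1 was highest, at 208 CPM, in reoxygenated cells.

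On day 1, none of the 6 genes was at least 2-fold higher or lower at 1% O2 than at 20% O2, where 2.12% of the 13940 genes measured were higher and 0.839% lower by that size. CYP1A1 differed by 0.12 on the log2 scale (-0.30 to 0.54), CYP1B1 by 0.15 (-0.06 to 0.35) and AHR by 0.11 (-0.02 to 0.24), each with an interval that holds 0. AHRR differed most, by 0.53, but at 25 and 16 counts its interval (-0.37 to 1.59) holds both 0 and 2-fold. TIPARP was higher at 1% O2 by 0.20 (0.06 to 0.34). ALDH1A3 was lower at 1% O2, by -0.36 (-0.64 to -0.09).

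After 10 days, CYP1A1, CYP1B1 and TIPARP were at least 2-fold higher at 1% O2 than at 20% O2, and none of the 6 was lower. The background was 14.4% of all genes higher and 7.04% lower by that size, and since these genes were selected on their values nothing is read from the comparison. Of all genes past 2-fold, 67.2% were higher, and 77.7% with library totals as the scaling. CYP1A1 was higher by 3.52 (3.25 to 3.85), or 11.4-fold, and 0.373% of all genes lay above it. CYP1B1 was higher by 1.5 (1.36 to 1.66), or 2.83-fold, and 7.5% of genes lay above it. All 6 differences were above 0, though the interval of AHRR, at 0.21 (-0.61 to 1.07), holds 0. Their median was 0.69 against 0.02 over all genes. Since the 6 were selected on their values, nothing is read from the shared sign or the median.

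The day 10 difference exceeded the day 1 difference by 3.40 for CYP1A1, 1.36 for CYP1B1, 0.85 for TIPARP, 0.70 for ALDH1A3 and 0.20 for AHR, and fell short of it by -0.32 for AHRR. The difference between days was not tested, since each condition had 1 library. Time at 20% O2 alone left CYP1A1 nearly level, at -0.06 (-0.48 to 0.36) for day 10 against day 1. At 1% O2, CYP1A1 was 3.34 (3.07 to 3.67) higher on day 10 than on day 1, CYP1B1 was 1.60 (1.44 to 1.77) higher and ALDH1A3 was 0.90 (0.66 to 1.16) higher.

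After reoxygenation both CYP1 genes stayed above cells kept at 20% O2, but they parted relative to 1% O2. CYP1A1 was 3.02-fold lower in reoxygenated cells than after 10 days at 1% O2, at -1.59 (-1.80 to -1.40) on the log2 scale. CYP1B1 was higher in reoxygenated cells than after 10 days at 1% O2, by 0.79 (0.68 to 0.90), and TIPARP was lower, by -0.61 (-0.75 to -0.46). CYP1A1 was thus the only one of the 6 past 2-fold in this pair, where 5.6% of all genes were higher and 11.2% lower. Against 10 days at 20% O2, a library that this comparison shares with the day 10 oxygen pair, reoxygenated cells had CYP1A1 higher by 1.92 (1.61 to 2.29) and CYP1B1 higher by 2.29 (2.15 to 2.44). Those were the 2 genes past 2-fold, and none was lower, where 3.4% of all genes were higher and 1.41% lower. Within 2-fold, AHRR was also higher in this pair, by 0.91 (0.18 to 1.77), TIPARP by 0.44 (0.28 to 0.61) and AHR by 0.37 (0.24 to 0.50). The interval of ALDH1A3, at 0.15 (-0.08 to 0.39), holds 0. Reoxygenated cells had also spent 10 more days in culture, and that time cannot be told apart from reoxygenation.

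**Figure D2:**
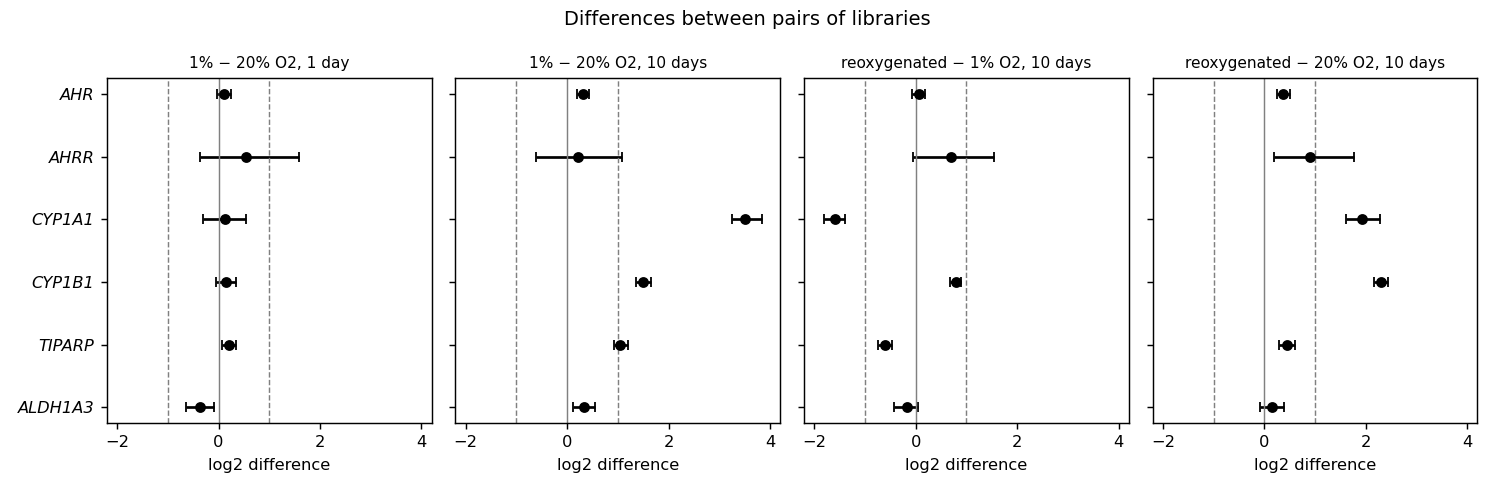
Log2 differences of the 6 genes (x axis) in 4 pairs of libraries, with exact 95% intervals of the count ratio that cover counting error only; dashed lines mark 2-fold. All 6 points of the day 1 pair lie within 2-fold, CYP1A1 lies at 3.52 in the day 10 pair, and CYP1A1 and CYP1B1 lie on opposite sides of 0 in reoxygenated cells against 10 days at 1% O2.

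Genes around the receptor were taken from 8 lists, 154 genes besides the 6, of which 122 passed the filter on low counts. Of those, 17 were at least 2-fold higher and 7 lower after 10 days at 1% O2 than after 10 days at 20% O2, shares close to the 14.4% and 7.04% of all genes. Among the 17, ALDH1A2, ALDH1L2 and SLC7A8 reached 1 CPM only after 10 days at 1% O2. They passed the filter through that library alone, so they could be called higher but not lower in this pair. On day 1 none of the 122 was higher and 3 were lower, where 0.839% of all genes were lower. The 3 were HIF1A, RARRES3 and SLC7A8. SLC7A8 had 1 count at 1% O2 and 4 at 20% O2 on day 1. Its difference of -1.02 has an interval (-7.68 to 1.28) that holds 0. An oxygen term fitted across both days with edgeR's quasi-likelihood test called 0.899% of 13011 genes risen and 0.0999% fallen at an adjusted p of 0.05. Among 114 list genes tested, 0 rose and 2 fell by that test. With an unadjusted p under 0.05 there were 14 of the 114, against 1593 of all 13011 genes, which is about the same share.

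In the list of the receptor complex, HSP90AA1 was the gene past 2-fold after 10 days at 1% O2. HSP90AA1, which keeps AHR ready to bind ligand, had 29884 counts in the reoxygenated library, 20924 after 10 days at 1% O2 and 53187 after 10 days at 20% O2. Its day 10 difference was -1.11 (-1.14 to -1.09), that of HSP90AB1 was -0.98 and that of PTGES3, which encodes p23, was -0.74. The partner ARNT was at 0.39 (0.23 to 0.55), its paralog ARNT2 at 0.64 and the coactivator NCOA3 at 0.77. RELB, an NF-κB subunit that can pair with AHR, was at -0.36 (-0.58 to -0.15). Of the 14 genes of the receptor complex, 0 were past 2-fold higher and 1 lower, with a median of 0.17. Over all genes, 14.4% were higher and 7.04% lower by that size, and nothing is read from the comparison.

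Other genes reported as AHR targets in at least 1 cell type did not move as 1 group. Of 26, 21 passed the filter, 7 were at least 2-fold higher and 2 lower after 10 days at 1% O2, with a median of 0.12. The shares over all genes were 14.4% higher and 7.04% lower, and nothing is read from the comparison. IL24, a secreted interleukin, had 157 counts in the reoxygenated library, 627 after 10 days at 1% O2 and 163 after 10 days at 20% O2, a day 10 difference of 2.16 (1.93 to 2.43). LMCD1 was at 1.47, STC2 at 1.35, SERPINB2 at 1.18, AREG at 1.13 and NEDD9 at 1.06. VAV3 had 21 counts at 1% O2 and 3 at 20% O2. In the other direction, NQO1, a quinone reductase that AHR and NRF2 both drive, had 1988 counts in the reoxygenated library, 244 after 10 days at 1% O2 and 1725 after 10 days at 20% O2. Its difference was -2.58 on day 10 and -0.51 on day 1. In the fit of both days NQO1 fell with 1% O2, by -1.51 ± 0.34 on the log2 scale (SE, edgeR quasi-likelihood test, adjusted p = 0.0195). That call held with limma-voom and the same terms (adjusted p = 0.00355) and in edgeR with no filter on low counts (0.00041). It was lost with DESeq2 (adjusted p = 0.0774), with DESeq2 size factors in edgeR (0.0521) and in edgeR without the day term (0.772). With a library left out and no day term, the fitted value was -0.28 without 1% O2 of day 10, -0.78 without 20% O2 of day 1 and -2.81 without 1% O2 of day 1. SLC7A11, the cystine carrier that NRF2 drives, was at -1.10 on day 10. CYP1A2, ALDH3A1, UGT1A1 and UGT1A6, targets known from liver, had 0 to 2 counts in each library.

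Several enzymes that make AHR ligands from tryptophan were barely detected. IDO1 had 0 to 7 counts and TDO2 0 to 4 counts per library, so the first step of the kynurenine pathway was near the counting floor. Of 18 genes of that list, 10 passed the filter. Over all genes, 14.4% were at least 2-fold higher at 1% O2 on day 10 and 7.04% lower. Of the 10, 1 was higher and 1 lower by that size, with a median of -0.31. The lower one was AADAT, a kynurenine aminotransferase, at -1.14 (-1.56 to -0.77), and the higher one, SLC7A8, had 11 counts at 1% O2 and 1 at 20% O2. KYNU, which cleaves kynurenine, was at -0.98, whereas the aminotransferases CCBL1 and CCBL2 were at 0.71 and 0.38.

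The genes of retinoic acid metabolism, binding and reception had the highest median of the 8 lists on day 10, 0.66. The lists were chosen with earlier results of these data known, so nothing is read from that rank. Of 26, 16 passed the filter, 6 were at least 2-fold higher at 1% O2 and 1 lower. Over all genes, 14.4% were higher and 7.04% lower by that size. RARB, a retinoic acid receptor that is itself a retinoic acid target, had 15 counts in the reoxygenated library, 125 after 10 days at 1% O2 and 12 after 10 days at 20% O2, a difference of 3.38 (2.76 to 4.60). CRABP2, which carries retinoic acid to the nucleus, had 52, 516 and 101 counts in the same order, a difference of 2.56 (2.28 to 2.91). DHRS3, which reduces retinal, was at 2.79 (2.18 to 3.86), RARG at 1.14 and RARA at 1.06. ALDH1A2, a paralog of ALDH1A3, had 11 counts at 1% O2 and 0 at 20% O2. FABP5, which carries retinoic acid to another nuclear receptor, was at -1.76 (-2.07 to -1.49), and RARRES3 was at -0.95. RARB, ALDH1A2 and STRA6 were too low for the oxygen term, and none of the 13 genes tested passed it; that of DHRS3 was 2.59 with an edgeR adjusted p of 0.0664.

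Among the bHLH-PAS relatives of AHR and AHRR, the HIF subunits differed in direction on day 10. HIF1A had 4980 counts in the reoxygenated library, 820 after 10 days at 1% O2 and 5727 after 10 days at 20% O2, with 2056 and 4110 counts after 1 day at 1% and 20% O2. HIF1A fell with 1% O2, by -1.79 ± 0.33 over both days (SE, edgeR quasi-likelihood test, adjusted p = 0.00216), and DESeq2 and limma-voom with the same terms also called it, with adjusted p of 0.000931 and 0.00014. Its call was lost without the day term (edgeR adjusted p = 0.772), and without the 1% O2 library of day 10 its fitted value was -1.18. EPAS1, which encodes the other main oxygen-regulated HIF subunit, was at 1.16 (1.07 to 1.25) on day 10, and the clock genes ARNTL and ARNTL2 were at 0.96 and -1. Of 17 genes, 13 passed the filter, 1 was at least 2-fold higher and 1 lower. By that size, 14.4% of all genes were higher and 7.04% lower, and nothing is read from the comparison.

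Families of TIPARP, the CYP1 enzymes and ALDH1A3 were taken in the same way. Over all genes, 14.4% were at least 2-fold higher on day 10 and 7.04% lower, and nothing is read from the family counts. Of 22 PARP and ADP-ribose genes, 20 passed the filter and none was past 2-fold on day 10, with a median of 0.11; PARP3 was at 0.86 and PARP2 at -0.71, beside 1.05 for TIPARP. Of 26 CYP1 partners and conjugating enzymes, 20 passed the filter, 0 were higher and 2 lower, NQO1 and MGST1 (-1.47). POR, the electron donor of the P450 enzymes, was at 0.45 (0.21 to 0.71). Of 18 aldehyde dehydrogenases besides ALDH1A3, 14 passed the filter, 3 were higher and 0 lower. Of the 3, ALDH1A2 had 11 counts at 1% O2 and 0 at 20% O2, and ALDH1L2 had 10 and 1. Both reached 1 CPM only in that 1% O2 library, so they could be called higher but not lower. ALDH1L1, a folate enzyme, was at 1.87 (1.30 to 2.67), while ALDH18A1, which makes proline precursors, was at -0.94.

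**Figure D3:**
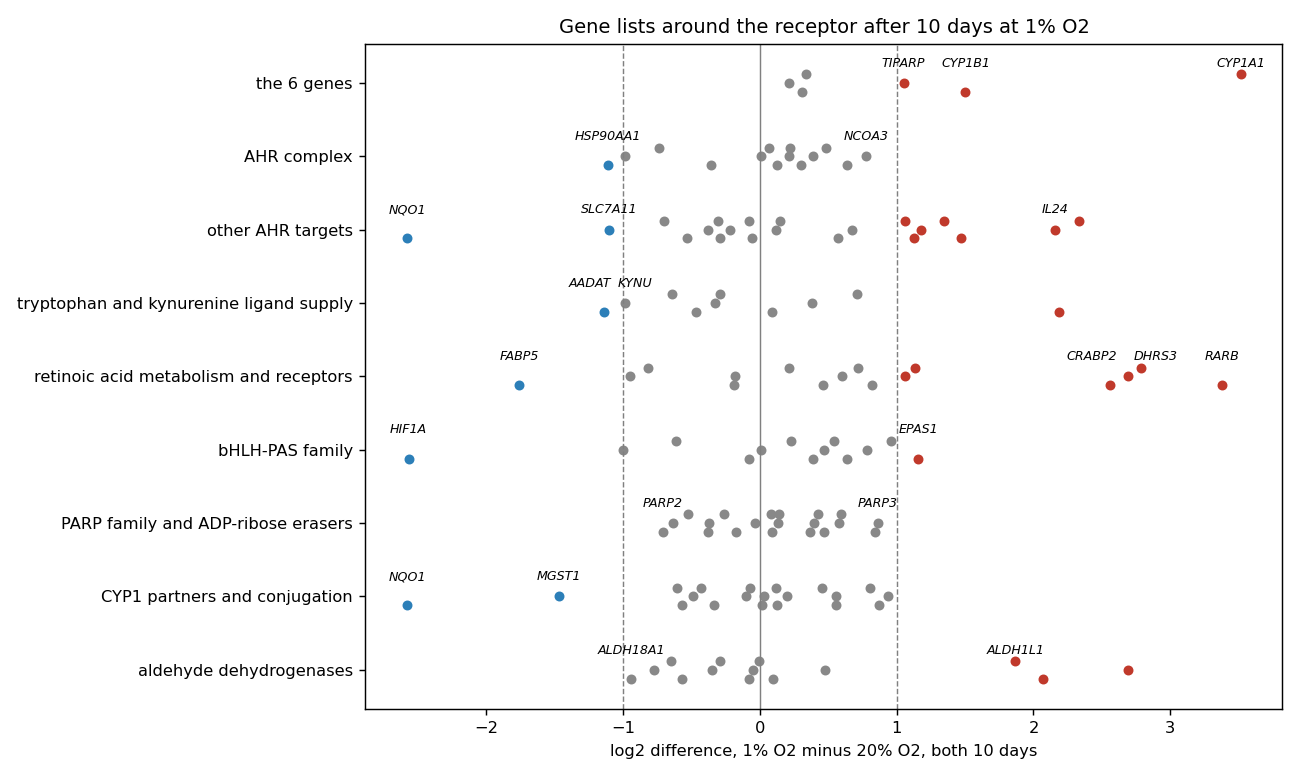
Log2 difference between 1% and 20% O2 after 10 days (x axis) of the 6 genes and of each gene in 8 lists that passed the filter on low counts; dashed lines mark 2-fold, red points are at least 2-fold higher and blue points at least 2-fold lower. CYP1A1 lies at 3.52, RARB at 3.38 and NQO1, which is in 2 lists, at -2.58.

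Genes of nearest profile were sought by the root mean square distance between log2 CPM values centred over the 5 libraries. AHR had 2388 of 10760 genes within a distance of 0.2, and its nearest genes were SGCB, SHARPIN and SPRED1. CYP1A1 and CYP1B1 each had 0 genes within that distance. A gene with large differences between libraries has fewer near neighbours by this measure, so these counts do not show how common the shape of a profile is. The nearest genes to CYP1A1 were FLJ26245 (distance 0.33, Pearson r 0.99), CDK18 (0.33, r 0.97) and KLF9 (0.40, r 0.99). KLF9, a transcription factor induced by glucocorticoid, was at 24.4 CPM in the reoxygenated library, 70.1 CPM after 10 days at 1% O2 and 11.3 CPM after 10 days at 20% O2. The nearest to CYP1B1 were GPRC5C (0.31, r 0.99), DDX60 (0.33, r 0.95) and FLG (0.34, r 0.94). DDX60, an interferon-induced helicase, was at 75.6 CPM in the reoxygenated library, 27.1 CPM after 10 days at 1% O2 and 15.9 CPM after 10 days at 20% O2. TIPARP lay nearest to FMN1, PHYKPL and PI4KAP1, with 499 genes within 0.2. ALDH1A3 lay nearest to PIK3AP1, CUEDC2 and SYPL2, with 475 genes, and AHRR to APOL6, XRN1 and BAZ2B, with 52. These values describe 5 libraries of different depth and carry no test.

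**Figure D4:**
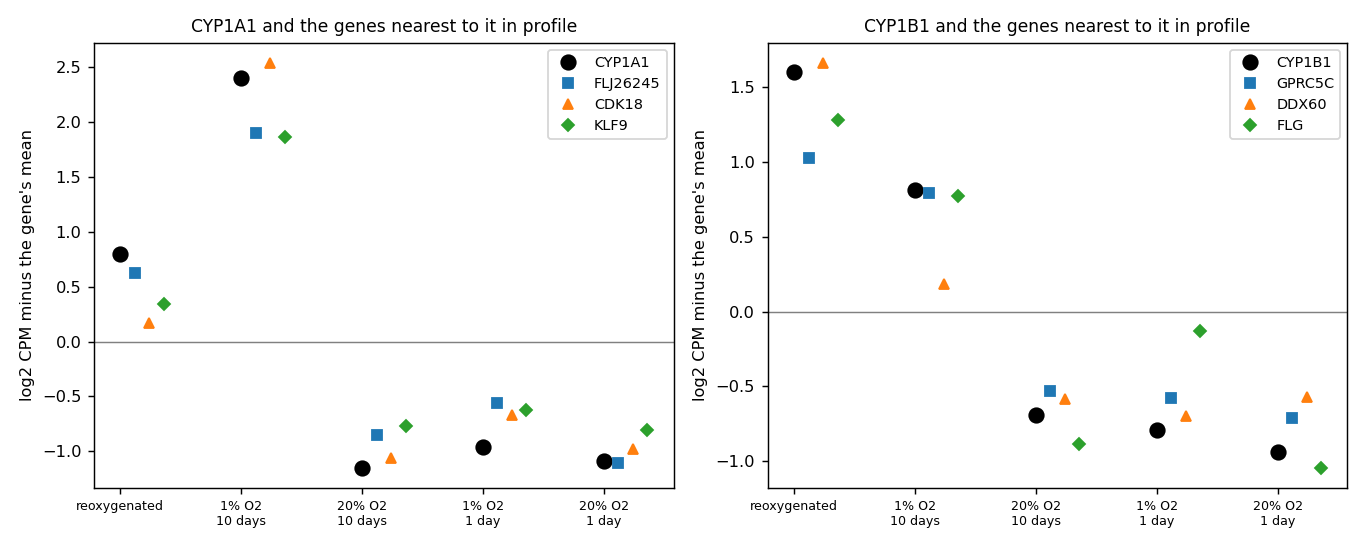
Log2 CPM of CYP1A1 and CYP1B1 (black) and of the 3 genes nearest to each, minus each gene's mean over the 5 libraries (y axis), by library. CYP1A1 and its neighbours are highest after 10 days at 1% O2, while CYP1B1 and its neighbours are highest in reoxygenated cells.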

How the data were processed

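RNA of MDA-MB-231 cells was made into 5 libraries, 1 per condition, with an mRNA kit, per the labels' protocols. The submitters' processing notes name the hg38 build, Bowtie2 2.1.0, RSEM 1.2.15 and edgeR, and neither annotation nor strand setting is given in the sources used here. The authors deposited 1 table of estimated counts per gene symbol, not normalized, and these expected counts were rounded to whole numbers here. The authors also deposited a normalized signal, CPM with TMM factors, per the file headers and values. All of its values (100%) lay within 0.02 of a whole read and 99.952% equalled the rounded count, so it was used only as an alternative; a count test on its recovered reads called 117 genes up and 13 down.

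A gene was kept if 1 or more libraries had it at 1 CPM (13940 genes), and log2 CPM used TMM factors and a prior count of 2 (edgeR 4.0.16, R 4.3.3). With 1 library per condition, each difference is between a pair of libraries and was not tested. At least 2-fold means a log2 difference of 1 or more. Intervals are exact (Clopper-Pearson for ratios, Poisson for levels) and cover counting error only. The oxygen term was fitted on 4 libraries with edgeR's quasi-likelihood test, with day as a term, genes at 1 CPM in 2 libraries (13011), 1 residual and 29.8 prior degrees of freedom, a common dispersion of 0.0484 and Benjamini-Hochberg adjustment. Whether the libraries come from separate cultures is not labelled. The 1 residual degree of freedom holds how far a gene's oxygen difference changed between the days, pooled with that of other genes. A p-value of this fit therefore does not measure the spread between cultures. Only the edgeR fit with the day term was run on simulated data. Those data had a lower dispersion, no day effect and the same oxygen effect on both days. The run therefore does not show how the fits behave on these libraries.

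The 6 genes and all lists were chosen with earlier results of these data known. Named list genes were the 2 highest and 2 lowest on day 10 with at least 5 CPM in a library, and those the oxygen term called; others named were chosen after their values were seen. Promoters and coordinates come from RefSeq (GRCh38.p14) and shared words from GENCODE 29. A planned comparison of protein sequences was not run.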

Additional observations from a re-analysis of the deposited data

Results flagged for a closer look

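The oxygen difference pointed in opposite directions on day 1 and day 10 for 3 genes, with counting intervals on both days that exclude 0. For ALDH1A3 it was 0.34 on day 10 and -0.36 on day 1, a change of 0.70 on the log2 scale. For ARNT2 it was 0.64 on day 10 and -0.19 on day 1, a change of 0.83. For HSP90AA1 it was -1.11 on day 10 and 0.10 on day 1, a change of -1.21. The difference between days was not tested, since each condition had 1 library.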

How the results depend on the processing

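In both oxygen pairs and both reoxygenated pairs, the counts of the 6 genes past 2-fold were the same with DESeq2 size factors, library totals, a prior count of 0.5 and the authors' normalized table as log2(value + 1). Of 36 log2 differences of these genes, all stayed within their counting intervals under the other settings and 33 did under library totals, where AHR on day 10 was at 0.44. At 1% O2, ALDH1A3 on day 10 against day 1 passed 2-fold under library totals, at 1.05 against 0.90. Library totals put the median of all genes on day 10 at 0.14, against 0.02, and 77.7% of the genes past 2-fold were then higher, against 67.2%. Across settings and filters, all genes past 2-fold numbered 1172 to 2613 higher (2011 as reported) and 668 to 1122 lower (982) on day 10, and 74 to 454 (295) and 19 to 244 (117) on day 1. In reoxygenated cells they numbered 497 to 973 (781) and 862 to 2136 (1556) against 10 days at 1% O2, and 123 to 797 (474) and 48 to 410 (197) against 10 days at 20% O2. Among list genes, a prior count of 0.5 gave 1 higher and 5 lower on day 1, and 1 lower in reoxygenated cells against 10 days at 20% O2. The normalized table gave 1 lower on day 1, and in reoxygenated cells 7 higher against 10 days at 1% O2 and 1 higher against 10 days at 20% O2, the last being 2 with a filter of 5 CPM. The oxygen term called 117 genes up and 13 down in all. It called 47 and 2 with DESeq2, 202 and 22 with limma-voom, 75 and 6 with DESeq2 size factors in edgeR, 237 and 44 with no filter, and 0 and 0 without the day term, where 462 had an unadjusted p under 0.05. Leaving out 1 library, which also drops the day term and assumes that a lone library varies like the others, gave 0 to 2062 up and 0 to 2251 down. List genes down numbered 1 with DESeq2, 1 with its size factors and 0 without the day term, and 0 to 19 with 1 library left out; list genes up numbered 3 with limma-voom, 4 with no filter and 0 to 26 with 1 library left out. The calls of NQO1 and HIF1A both held without the 1% O2 library of day 1, with adjusted p of 0.000174 and 0.000136 in edgeR, and were lost without any other library; the cause was not tested. The recovered reads, an alternative chosen after seeing the data, gave the same counts. No replicate number pairs the libraries, as each condition had 1; the day term already sets the libraries of 1 day side by side. Summing AHRR with joined rows was not run, since no such row was among those used.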

Other observations

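Some list genes that stood apart after 10 days at 1% O2 lay closer to the 20% O2 level in reoxygenated cells. CRABP2 was lower in reoxygenated cells than after 10 days at 1% O2 by -2.88, and it lay at -0.32 against 10 days at 20% O2. NQO1 was higher by 3.41 than after 10 days at 1% O2 and lay at 0.83 against 10 days at 20% O2. MGST1 was higher by 1.83 and lay at 0.36. HIF1A was higher by 2.99 and lay at 0.42. SLC7A11 was higher by 2.16 than after 10 days at 1% O2 and lay at 1.05 against 10 days at 20% O2. That was about as far from the 20% O2 level as its -1.10 after 10 days at 1% O2. NQO1, MGST1, HIF1A and SLC7A11 all lay below the 20% O2 level after 10 days at 1% O2 and above it in reoxygenated cells.

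Of the 122 list genes, 6 were at least 2-fold higher in reoxygenated cells than after 10 days at 20% O2 and 0 were lower, where 3.4% of all genes were higher and 1.41% lower. The 6 became 1 with the authors' normalized table, 2 with a filter of 5 CPM and 9 with library totals. They were SLC7A11, DHRS3, VAV3, XDH, STRA6 and ALDH1L2, named after their values were seen. DHRS3 had 33 counts in reoxygenated cells and 15 after 10 days at 20% O2, a difference of 1.62, and XDH had 23 and 16 counts in those libraries, a difference of 1.04. VAV3, STRA6 and ALDH1L2 had 12 counts or fewer in reoxygenated cells. STRA6 reached 1 CPM only in that library, so it could be called higher but not lower. SLC7A11, with 2100 counts, was the best counted of the 6.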
